A study of Mus musculus with 10 samples.

Results

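Regions of open chromatin that were called in 1 library and in none of the other 9 made up most of the places listed in this ATAC-seq series of the mouse ventral tegmental area. Peak intervals of all 10 libraries on chromosomes 1 to 19 and X were pooled, intervals that overlapped by at least 1 bp were merged, and the members were chosen by peak presence: regions with a peak from exactly 1 library were kept. This gave 49141 single-library regions among 74565 merged regions (65.9%). They covered 11.9 Mb, against 11.2 Mb for the 20128 regions called in 2 to 9 libraries and 5.15 Mb for the 5296 called in all 10. As they were selected on presence and absence of called peaks, their number, and any measure of how strongly they were called, is given as a description without a test.

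The libraries came from single adult mice, older than postnatal day 60, of the genotype ArcCreERT2 x Sun1/+. In these mice a tamoxifen-dependent Cre recombinase is driven by the immediate early gene Arc, so that cells with Arc activity come to carry the Sun1-myc-sfGFP tag on the nuclear envelope. Tagged nuclei were pulled out on magnetic beads, and every library is labelled either activated or non-activated. Mice had been through early-life stress or standard rearing. The 4 groups were stressed activated (n = 3), standard-reared activated (n = 2), stressed non-activated (n = 3) and standard-reared non-activated (n = 2). The 10 libraries came from 6 animals, 3 male and 3 female, of which 4 animals gave a library to each class.

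In ATAC-seq the Tn5 transposase cuts and tags DNA that is not packed tightly into nucleosomes. As background, promoters of widely used genes tend to be open in most cell types, whereas distal enhancers tend to open in particular cells or states. Weak sites are listed or missed depending on the number of fragments sequenced. The labelled tissue could not be checked against marker genes, and the regions are given by position alone, since no gene annotation or sequence of mm39 was used here.

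Most single-library regions came from a pair of libraries. Replicate 1 of the stressed non-activated group gave 26555 and replicate 1 of the standard-reared activated group 16405, together 42960 of the 49141 (87.4%). The other 8 libraries gave 6181 (12.6%). Among the stressed activated libraries there were 785, 1462 and 517 in replicates 1 to 3, and standard-reared activated replicate 2 had 518. Stressed non-activated replicates 2 and 3 had 1491 and 819, and the standard-reared non-activated replicates 1 and 2 had 95 and 494. Single-library regions were 53.2% of all regions of stressed non-activated replicate 1 and 42.6% of those of standard-reared activated replicate 1. In the other 8 libraries that share lay between 1.36% and 11.99%. In each activation class, and under each rearing, 1 library thus lay far above the others.

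**Figure D1:**
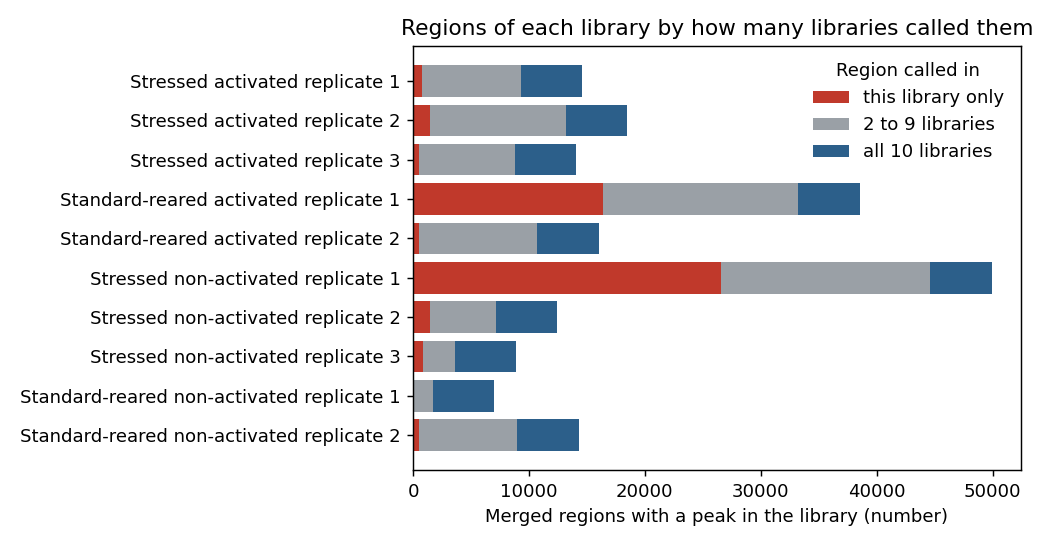
Number of merged regions with a peak in each library (horizontal axis), split by whether the region was called in this library only, in 2 to 9 libraries or in all 10. The single-library part reaches 26555 regions for stressed non-activated replicate 1, then 16405 for standard-reared activated replicate 1, with at most 1491 elsewhere.

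The 2 libraries with most single-library regions also had the longest lists, 50771 and 39776 peaks, against 7075 to 19701 in the others. Depth did not rank the libraries in the same order. Depth was solved from each list as the lowest background rate divided by the fragment length. It was 6.52 fragments per kb of effective genome in stressed non-activated replicate 1 and 5.30 to 10.9 in the 5 activated libraries, of which standard-reared activated replicate 1 was the deepest. The remaining 4 non-activated libraries had 0.309 to 1.45. These 4 had fragment lengths of 210 to 250 bp, and the 6 deeper ones 134 to 161 bp. At 6.52 fragments per kb there were 26555 single-library regions, whereas stressed activated replicates 1 and 2, with 10.1 and 6.86 fragments per kb, had 785 and 1462. The part of depth in the counts was not tested. Stressed non-activated replicate 1 thus stood with the activated libraries in fragment length and depth and apart from the other non-activated ones. In another trait it stood with the non-activated ones. At regions called in all 10 libraries its median pileup, the fragments at a summit, was 72.6 times its background rate. The other non-activated libraries had 35.2 to 134 times there, and the activated ones 17.7 to 33.5 times. Whether the label of stressed non-activated replicate 1 is right cannot be told from these lists. This library is used below as labelled, and values without it are given beside the results.

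Cutting each list to its 7075 strongest peaks removed the difference in length and left 3672 single-library regions among 13398 (27.4%). At that length stressed non-activated replicate 1 still gave most, 901 regions, while standard-reared activated replicate 1 fell to 280. The other activated libraries then had 260, 128, 230 and 142. The other non-activated libraries had 549 and 676 in stressed mice and 395 and 111 in standard-reared mice. Of the 901 regions, 402 (44.6%) were absent from the whole lists of the other 9 libraries as well. None of the 280 of standard-reared activated replicate 1 could be, because 7364 peaks of that list were stronger than its strongest peak found in no other whole list. In stressed non-activated replicates 2 and 3, 315 of 549 (57.4%) and 355 of 676 (52.5%) were also absent from the other whole lists.

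Single-library peaks lay towards the weak end of every list, and in 1 list they also reached far up. The authors' -log10 q of a peak, its adjusted significance over the background of the same library, had a median of 2.52 to 2.92 among the single-library peaks of the 5 activated libraries. Peaks of the same libraries that were also called elsewhere had medians of 5.39 to 7.31. In the non-activated libraries the single-library medians were 5.65, 4.31 and 2.83 in stressed replicates 1 to 3 and 2.64 and 2.53 in standard-reared replicates 1 and 2, against 16.7, 7.01, 5.56, 5.73 and 8.67 for their shared peaks. The highest single-library -log10 q was between 6.60 and 12.7 in 9 libraries. In stressed non-activated replicate 1 it was 75.7. That library alone had single-library peaks with a -log10 q of at least 20, 1897 of 26555. Its whole list stood high, as 10839 of its 24216 shared peaks also reached that value. In regions called in all 10 libraries its peaks had a median -log10 q of 54.2, against 6.72 to 21.0 in the other lists. At a -log10 q of at least 5 it had 14833 (55.9% of its single-library peaks), whereas standard-reared activated replicate 1 had 830 (5.06%). Among the shared peaks of these libraries the percentages were 82.8% and 62.5%.

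**Figure D2:**
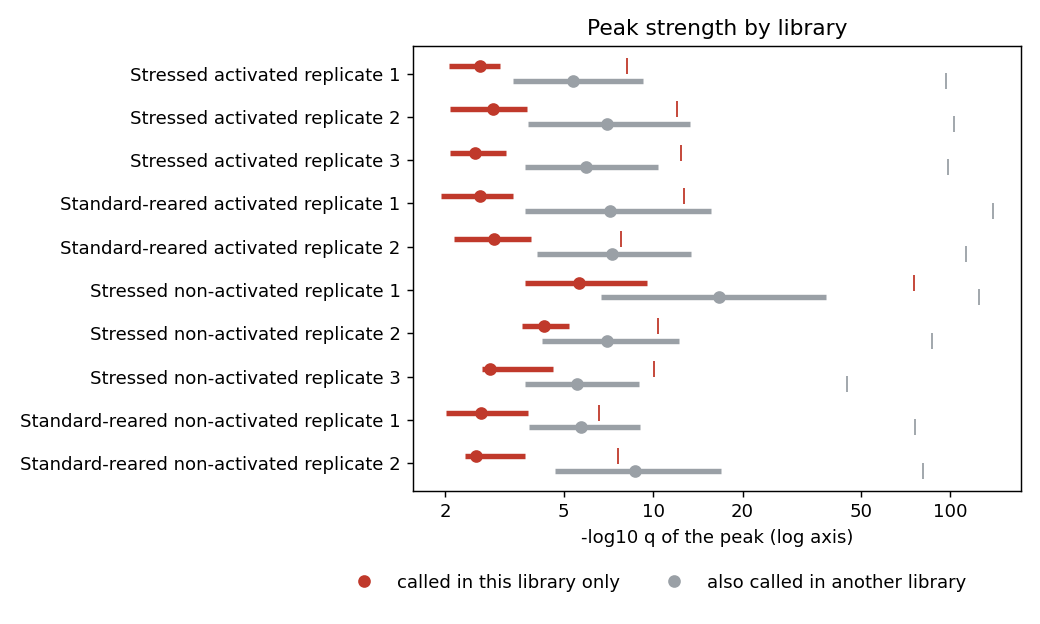
Authors' -log10 q of each peak (horizontal log axis) by library, for peaks called in this library only and for peaks also called in another library. Dots are medians, bars the quartiles and ticks the highest value; the highest single-library tick is 75.7 in stressed non-activated replicate 1 and at most 12.7 in the other libraries.

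Ranked within the list, the share of peaks found in no other library fell towards the strong end. In stressed non-activated replicate 1 it was 76.0% in decile 1, the weakest peaks, then 50.3% in decile 7, 17.8% in decile 9 and 3.29% (167 of 5077) in decile 10. In standard-reared activated replicate 1 it was 75.5% in decile 1, 24.8% in decile 7 and 2.94% in decile 8. Its decile 9 held 2 single-library peaks of 3978, and its decile 10 held 0 of 3977. The pair of long lists thus looked alike in their weak part and parted in their strong part.

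**Figure D3:**
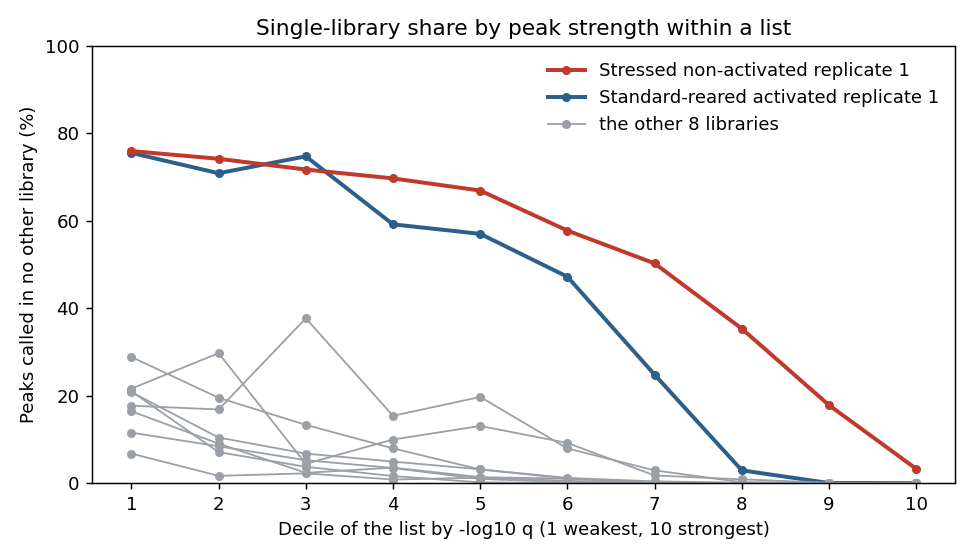
Percentage of peaks found in no other library (vertical axis) in each decile of a list ranked by -log10 q (horizontal axis, weakest to strongest). Stressed non-activated replicate 1 and standard-reared activated replicate 1 start at 76.0% and 75.5%, and only the first keeps a share above 1% in deciles 9 and 10.

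Medians of fold did not set 1 library apart. The authors' fold of pileup over background had single-library medians of 3.76 to 4.297 in the activated libraries. In the non-activated libraries the medians were 5.06, 5.07 and 3.72 in stressed replicates 1 to 3 and 4.47 and 4.04 in standard-reared replicates 1 and 2. The pileup at the summit, solved from the fold and p of each peak, had a median of 8 to 10 fragments in single-library peaks of the activated libraries and 16 to 21 in their shared peaks. In stressed non-activated replicate 1 the medians were 12 fragments for single-library and 28 for shared peaks. In the other 4 non-activated libraries a single-library peak rested on a median of 3 to 5 fragments, against 8 to 13 for a shared peak. In those 4 shallow lists the least pileup called was 2 to 4 fragments, so that the median single-library peak stood 1 or 2 fragments above it. In the 6 deeper lists the least was 6 or 7.

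Width ran down to the smallest size that a list contained, which is the fragment length. Single-library regions had a median width of 208 bp (quartiles 162 and 273), regions called in 2 to 9 libraries 492 bp and regions called in all 10 libraries 928 bp. Merging itself widens shared regions, so peak widths within a list are the closer comparison. Single-library peaks had median widths of 141 to 181 bp in the activated libraries, 230 bp in stressed non-activated replicate 1 and 210 to 250 bp in the other non-activated ones, where 60.1% to 83.2% of them had the smallest width of the list. In stressed non-activated replicate 1 that share was 11.9%. Shared peaks of the same lists had median widths of 307 to 500 bp. More than 1 summit was found in 5.30% of the single-library peaks of stressed non-activated replicate 1 and in at most 0.768% of those of any other library.

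Regions called in exactly 2 libraries lie just outside the rule. There were 6648 of them, with a median width of 332 bp. In stressed non-activated replicate 1 the median -log10 q was 5.65 for single-library peaks and 5.81 for peaks in these regions. The values for standard-reared activated replicate 1 were 2.61 for single-library peaks and 3.36 for peaks in these regions. Of the 6648, 3798 were called in these 2 libraries. Stressed non-activated replicate 1 and the activated library of the same animal shared 222, which is 45.5% of the 488 such regions of the activated library and 4.21% of the 5270 of the non-activated one. The other activated libraries shared 39.7% to 79.6% of theirs with stressed non-activated replicate 1. Just inside the rule were 4268 single-library regions (8.69%) that lay within 200 bp of another merged region.

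The strongest single-library peaks all belonged to stressed non-activated replicate 1. The highest lay on chromosome 4 (102005892 to 102006402, mm39), with 74 fragments at the summit over a background of 2.55, a fold of 21.1 and a -log10 q of 75.7. Only 1146 peaks of the library were stronger, which placed it at percentile 97.7 of the list. It was 501 kb from the nearest region called in all 10 libraries and 60.2 kb from the nearest peak of any other library. The next were on chromosome 14 (31795146 to 31795700; 74 fragments, fold 20.03) and, as a pair of separate sites, on chromosome 8 (70870657 to 70871015 with 82 fragments and a fold of 14.8, and 118058976 to 118059396 with 75 fragments and a fold of 16.9). The fifth was on chromosome 2 (107349762 to 107350632; 68 fragments, fold 19.3). The one on chromosome 2 was the most isolated, 229 kb from the nearest peak of another library and 1614 kb from the nearest region called in all 10.

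In standard-reared activated replicate 1 the strongest single-library peaks were more modest. The first lay on chromosome 1 (156432408 to 156432689), with 20 fragments over a background of 1.64, a fold of 7.96 and a -log10 q of 12.7, and 7364 peaks of that library were stronger. A peak on chromosome 8 (19755190 to 19755399) and one on chromosome 2 (138310179 to 138310433) followed, and after them one on chromosome 17 (12347927 to 12348141) and one on chromosome 4 (132702245 to 132702576). These 4 had 19 to 25 fragments and folds of 5.66 to 7.76. Their nearest peaks in other libraries were 2.02 to 86.7 kb away.

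In the other 8 libraries the strongest single-library peak stood between percentile 47.5 and 83.0 of its list. The stressed activated libraries had theirs on chromosome 13 (109746421 to 109746594; 15 fragments), chromosome 18 (22176400 to 22176749; 17 fragments) and chromosome 6 (6495477 to 6495686; 17 fragments) in replicates 1 to 3. Standard-reared activated replicate 2 had its own on chromosome 5 (130216365 to 130216525; 12 fragments). In stressed non-activated replicates 2 and 3 it lay on chromosome 1 (168195197 to 168195454; 11 fragments) and chromosome 17 (9339115 to 9339361; 10 fragments). In standard-reared non-activated replicates 1 and 2 it lay on chromosome 11 (47980906 to 47981140; 9 fragments) and chromosome 12 (84357837 to 84358154; 8 fragments).

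Whether such peaks could have been listed elsewhere depends on how pileups are carried from library to library. At the 5296 regions called in all 10 libraries, stressed non-activated replicate 1 had a median pileup of 71 fragments, which is 72.6 times its background rate. The activated libraries had 23 to 41 fragments there, or 17.7 to 33.5 times their rates. The other non-activated libraries had 10 to 25 fragments, which came to 86.9 and 134 times the rate in stressed replicates 2 and 3 and to 35.2 and 105 times in standard-reared replicates 1 and 2. Each single-library pileup was lowered to the lower limit of its 95% exact Poisson interval, scaled by the median ratio at these regions and set against the least significant p listed in the other library. On that scale 194 single-library peaks of stressed non-activated replicate 1 (0.731%) reached the limit in all of the other 9 libraries. 227 (0.855%) reached it in all 5 activated libraries, and 21101 (79.5%) in none of the 9. For standard-reared activated replicate 1 the count over all 9 was 0 of 16405, where 3 peaks would be a share of 0.0183%. In this library 3352 (20.4%) reached the limit in none. Stressed activated replicate 1 had 8 of 785 over all 9, a share of 1.02%, stressed activated replicate 3 had 1 of 517, and the other 6 libraries had 0. Reaching the limit did not mean being listed. Of all peaks of stressed non-activated replicate 1 that reached it in a given other library, 55.1% to 92.2% were called there. Single-library peaks, which by the rule are not called there, count in these percentages.

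Scaled by background rates, the count of stressed non-activated replicate 1 over all 5 activated libraries was 7664 (28.9%) in place of 227, and 80 (0.301%) reached the limit in all 9. Stressed non-activated replicate 3 then had 280 of 819 over all 9 (34.2%), a far higher share, and the other 8 libraries had 0. For standard-reared activated replicate 1, 16353 of 16405 (99.7%) then reached it in no other library. On this scale 41.4% to 86.3% of all peaks of stressed non-activated replicate 1 that reached the limit in a given other library were called there. The numbers of unlisted peaks that reached the limit therefore rested on the scale, which was chosen after the data were seen. The 5 strongest peaks of stressed non-activated replicate 1, named above, were among the 194. These 194 peaks had 33 to 90 fragments, a median fold of 15.8 and a -log10 q of 35.9 to 75.7, and they lay on 19 chromosomes. None was on X, where 3 peaks would be a share of 1.55%.

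Single-library regions of the longest list also lay close to each other. Members of 1 library were joined where they were at most 12.5 kb apart. In stressed non-activated replicate 1, 51.9% of them stood alone, and 278 joined stretches held 5 or more, with 1631 regions in all. In standard-reared activated replicate 1, 74.6% stood alone and 11 stretches held 5 or more. In each of the other 8 libraries at least 96.7% stood alone. The number of regions on the same genome differs between these libraries, and its part in the stretches was not tested.

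The fullest stretches of stressed non-activated replicate 1 were on chromosome 18 (25763149 to 25835746, 12 regions in 72.6 kb) and chromosome 15 (78439026 to 78495485, 12 regions in 56.5 kb; and 82879799 to 82927343, 11 regions in 47.5 kb). The first of these had a -log10 q of 1.60 to 28.1 over its 12 peaks and enclosed 1 region shared with another library. None of the 3 enclosed a region called in all 10. In standard-reared activated replicate 1 the fullest stretch lay on chromosome 18 (37802145 to 37842222) with 7 regions of -log10 q up to 4.99, and 2 shared regions lay inside it.

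By median, single-library regions lay farther from the regions called in all 10 libraries than shared regions did. Their median distance was 127 kb, against 102 kb for regions called in exactly 2 libraries, 88.4 kb for those called in 2 to 9 and 70.6 kb between the regions called in all 10 themselves. Within 10 kb lay 5.06% of single-library regions and 7.67% of those called in 2 to 9, but only 5.21% of those called in all 10. By library the single-library medians were 155, 148 and 163 kb in stressed activated replicates 1 to 3 and 120 and 105 kb in standard-reared activated replicates 1 and 2. They were 122, 299 and 250 kb in stressed non-activated replicates 1 to 3 and 226 and 152 kb in standard-reared non-activated replicates 1 and 2.

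**Figure D4:**
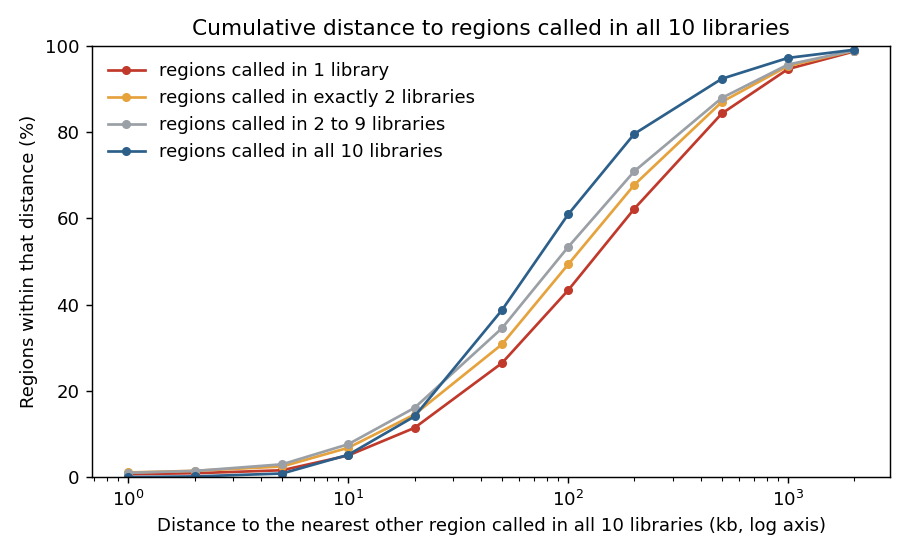
Percentage of regions (vertical axis) that lie within a given distance (horizontal log axis, kb) of the nearest other region called in all 10 libraries. Single-library regions run lowest from 20 kb on, with a median of 127 kb, against 102 kb for regions called in exactly 2 libraries and 88.4 kb for regions called in 2 to 9.

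Position relative to the regions called in all 10 did not enter the rule directly, apart from the absence of overlap. It was tested as the percentage of regions within 10 kb of one. The rule rests on called peaks, and the solved background of a peak varied within a list. By library, it exceeded 3 times the lowest rate of the list in 0.892% to 13.4% of single-library peaks. Among peaks also called elsewhere this share was 12.4% to 78.9%. The part of background in the distances was not tested, and the test below cannot separate position from calling. Averaged to animals, 4.84% ± 0.87 of single-library regions lay within 10 kb, against 8.03% ± 0.23 of the regions that the same libraries shared with 1 to 8 others (SD, n = 6 animals). The difference of -3.19 ± 0.82 percentage points was negative in 6 of 6 animals (two-sided exact sign-flip permutation p = 0.03125, the smallest that 6 animals allow; adjusted p = 0.125 over 8 tests). By library it was 0.15 in standard-reared activated replicate 2 and negative in all others. The other library of that animal, standard-reared non-activated replicate 1, had -5.34, with 3 of its 95 single-library regions within 10 kb. The difference was not seen when only peaks with a -log10 q of at least 5 were pooled (0.38, exact permutation p = 0.688). With lists of equal length it was -0.28 (exact permutation p = 0.656). Both settings pool anew, so single-library regions, shared regions and regions called in all 10 are then other sets. The regions shared with 1 to 8 others then averaged 3.82% and 3.29%, in place of 8.03%. Whether the difference held among the stronger of the single-library regions described here was not tested. With whole lists it remained negative when any 1 library was left out (-3.66 to -2.88), here with an exact permutation p between 0.03125 and 0.0625. Where the library left out was the only one of its animal, 0.0625 was the smallest p possible.

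Between the classes, the same percentage was higher among activated libraries. It was 4.97%, 5.68% and 5.42% in stressed activated replicates 1 to 3 and 5.61% and 8.49% in standard-reared activated replicates 1 and 2. It was 4.88%, 2.21% and 1.95% in stressed non-activated replicates 1 to 3 and 3.16% and 5.06% in standard-reared non-activated replicates 1 and 2. The Wilson 95% interval of the 2 smallest sets was wide, 1.08% to 8.88% for the 95 regions of standard-reared non-activated replicate 1 and 3.45% to 7.36% for the 494 of replicate 2, and intervals here cover counting error only. The classes overlapped at 1 point, as standard-reared non-activated replicate 2 lay above stressed activated replicate 1.

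Activated libraries averaged 6.03% ± 1.40 and non-activated libraries 3.45% ± 1.46 (SD, n = 5 each), a difference of 2.58 points (two-sided exact permutation p = 0.0159, or 0.125 when adjusted over 8 tests). Paired within the 4 animals that gave both classes it was 3.09 (exact permutation p = 0.125, the smallest possible). It was 0.46 at a -log10 q of at least 5 (exact permutation p = 0.73) and 0.56 at equal list length (exact permutation p = 0.611), and neither passed. Without stressed non-activated replicate 1 it was 2.39, without standard-reared activated replicate 1 it was 3.84, and without both it was 4.48. All activated libraries had short fragments and 4 of the 5 non-activated ones long fragments. Among short-fragment libraries the comparison comes down to 1 non-activated library, whose 4.88% lay just below the 4.97% to 8.49% of the 5 activated ones, and in these data the class cannot be told apart from the kind of library.

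In stressed mice the activated libraries averaged 5.35% ± 0.36 and the non-activated ones 3.02% ± 1.62 (SD, n = 3 each; exact permutation p = 0.1, the smallest possible). That difference of 2.34 points was 0.013 at equal list length (exact permutation p = 1), 3.43 without stressed non-activated replicate 1 and 5.24 without both long lists. In standard-reared mice the values were 7.05% ± 2.04 in activated and 4.11% ± 1.35 in non-activated libraries (SD, n = 2 each; exact permutation p = 0.333, the smallest possible). Their difference of 2.94 points ranged from 1.57 without stressed non-activated replicate 1 to 5.31 without standard-reared activated replicate 1, and it was 1.59 without standard-reared activated replicate 2. Stressed activated libraries differed from standard-reared activated ones by -1.70 points (exact permutation p = 0.2, n = 3 and 2). Without standard-reared activated replicate 2 this was -0.28, and without stressed non-activated replicate 1 it was -1.12. Stressed non-activated libraries differed from standard-reared non-activated ones by -1.09 points (exact permutation p = 0.5, n = 3 and 2). It was -2.98 without stressed non-activated replicate 1 and -1.96 without standard-reared non-activated replicate 1. It was -0.31 without stressed non-activated replicate 3, -0.52 without replicate 2 and -0.63 without standard-reared activated replicate 1. With 3 against 2 libraries no p below 0.1 can be reached, and in none of these 4 contrasts could the test have passed 0.05. Their p-values therefore do not decide whether the differences exceed the replicate spread.

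Chromosomes took part in the single-library regions much as in the shared ones, except X. On the 19 autosomes the share of all single-library regions divided by the share of all shared regions ran from 0.828 (chromosome 19) to 1.17 (chromosome 16). X held 546 single-library regions, 1.11% of them, against 2.403% of the shared regions, a quotient of 0.462. The members of male libraries dominate that pooled value, with 46698 of the 49141 regions.

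By sex, the X share of single-library regions was higher in females. The female libraries had 3.68% (19 of 517) in stressed activated replicate 3, 6.76% (35 of 518) in standard-reared activated replicate 2, 6.11% (50 of 819) in stressed non-activated replicate 3, 5.26% (5 of 95) in standard-reared non-activated replicate 1 and 2.83% (14 of 494) in standard-reared non-activated replicate 2. The male libraries had 0.382% (3 of 785) and 0.616% (9 of 1462) in stressed activated replicates 1 and 2, 0.402% (66 of 16405) in standard-reared activated replicate 1, and 1.11% (294 of 26555) and 3.42% (51 of 1491) in stressed non-activated replicates 1 and 2. Only the last of these male values reached the female range. As background, male mice carry a single X chromosome and females a pair.

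Averaged to animals, females had 4.58% ± 1.61 and males 1.06% ± 0.85 (SD, n = 3 each), a difference of 3.52 points (two-sided exact permutation p = 0.1, the least that 3 against 3 can give; adjusted p = 0.2). With libraries as units the difference was 3.74 points (exact permutation p = 0.0159, n = 5 each), although 4 animals then count with a pair of libraries. With animals as units it was 1.36 points at a -log10 q of at least 5 and 1.88 points at equal list length (exact permutation p = 0.2 in both), and 3.44 points without stressed non-activated replicate 1. Within short-fragment libraries the 2 female values (3.68% and 6.76%) lay above the 4 male ones (0.382% to 1.11%). Within long-fragment libraries the 3 female values (2.83% to 6.11%) lay on either side of the 1 male value (3.42%). Regions that a library shared with others held 1.99% to 2.86% on X in every library of either sex. Single-library and shared regions did not differ in one direction, with a mean difference of 0.40 ± 2.21 points over 6 animals (exact permutation p = 0.656). The difference was positive in the 3 females (0.34 to 3.58) and negative in the 3 males (-1.96 to -0.45). Its mean thus joins opposite directions in the sexes.

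**Figure D5:**
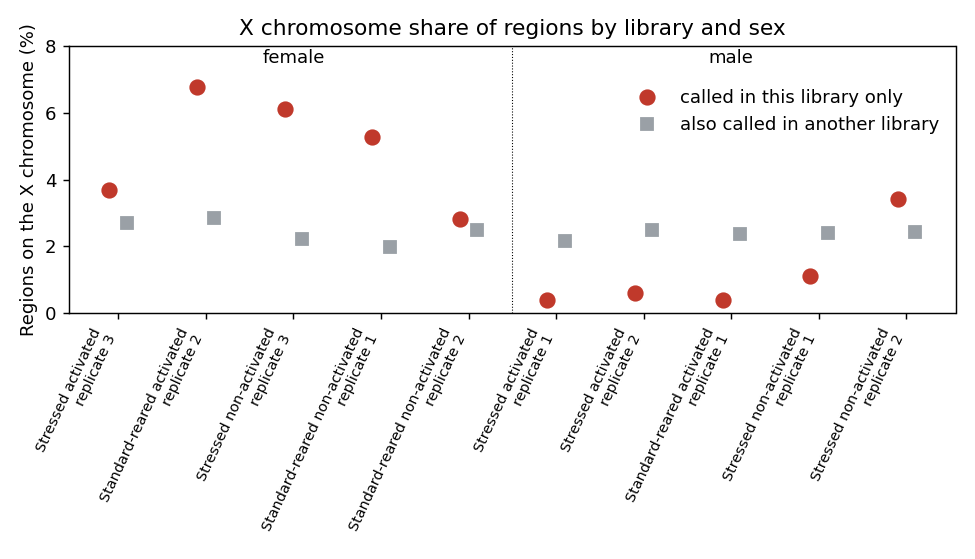
Percentage of regions on the X chromosome (vertical axis) in each library, females to the left of the dotted line and males to the right, for regions called in this library only and for regions also called in another library. Single-library values are 2.83% to 6.76% in females and 0.382% to 3.42% in males, whereas shared values stay between 1.99% and 2.86%.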

How the data were processed

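The authors deposited 1 peak list per library. MACS2 2.2.9.1, R 4.4.2, SAMtools 1.13, Bowtie2 2.4.5, fastp 0.23.4 and build mm39 are named per the submitters' processing notes. Duplicate removal and a read shift for the transposase were not given in the sources used here. The deposited fold is a linear ratio of pileup to background, the deposited p-value and q-value are -log10, and the deposited score is the -log10 q times 10. These are the authors' values. They were compared within lists and also set side by side between lists, which differ in depth and background. Repeated summit entries were counted once, at the highest -log10 q.

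Members and lists were chosen with earlier results of these data known. Pileup and background were solved from fold and p (pseudocount 1; relative misfit below 2e-05 for 100% of peaks). Pooling, distances, solving and tests were checked on simulated data. Named regions were the 5 with the highest -log10 q in the 2 libraries with most members and the first in each other library; joined stretches were chosen after their values were seen. Tests were two-sided exact permutations over animals or libraries, with Benjamini-Hochberg adjustment over 8; percentages needed at least 10 regions. Replicate numbers mark the same animal in stressed mice, per the library names, and in standard-reared mice they do not. In stressed mice, deviations of chromosome shares, X included, correlated at 0.404, 0.398 and 0.666 for replicates 1 to 3. Pairs of unlike replicate number had -0.520 to 0.235. Replicate 3 was the only stressed female, so animal and sex cannot be told apart there. Planned results on gene starts, gene spans, G+C content, gene lists and motifs were not run, since only a GRCm38.p6 gene table was at hand; the tests reported replaced them after the files were read. As alternatives served a -log10 q of at least 5, merging up to 200 bp, equal list length, autosomes, a 5 kb window, other units or comparison sets, and libraries left out. The software was SciPy 1.17.1, NumPy 2.4.6, Matplotlib 3.10.9, statsmodels 0.14.6 and pandas 2.3.3 under Python 3.11.15.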

Additional observations from a re-analysis of the deposited data

Results flagged for a closer look

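Within the activated class and within the non-activated class, each of 5 libraries, 16 sets of values were screened for an isolated library. By chance about 1 in 20 sets would show one. Numbers and shares of single-library regions follow from the rule, and each share is computed from its number. For these the flags are a description and no test. Standard-reared activated replicate 1 stood above the other activated libraries with 16405 single-library regions (next 1462) and with 42.6% of its regions in no other library (next 7.90%). Stressed non-activated replicate 1 stood above the other non-activated libraries with 26555 single-library regions (next 1491) and a share of 53.2% (next 11.99%). Standard-reared activated replicate 2 had 8.49% of its single-library regions within 10 kb of a region called in all 10 (next 5.68%).

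Rearing groups differed in the direction of activated minus non-activated within an animal in 3 measures, and this was not tested, as only 1 standard-reared animal gave both classes. All 3 stressed animals had fewer single-library regions in the activated library, on average by -8700.3, whereas the standard-reared animal had 423 more. The share of regions found in no other library differed by -19.1 points on average in the stressed animals and by 1.88 in the standard-reared one. The X share of single-library regions differed by -1.99 points in the stressed animals and by 1.49 in the standard-reared one. The mean number and the mean share rest on the animal of replicate 1, with 785 regions in its activated and 26555 in its non-activated library. Without that animal the stressed means were -165.5 regions and -4.80 points. The X difference was -2.62 points without it.

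Outside the chromosomes used, 15 single-library regions lay on Y and 31 on unplaced sequence. Female libraries had 2 of the 15, none in 3 of them, in a set of 28 Y regions. Shared ones included, every female library had called Y regions. Standard-reared activated replicate 2 had 7, stressed activated replicate 3 had 4 and each other female library 1, against 5 to 15 in male libraries. The mitochondrial sequence held 3 regions, each called in all 10 libraries.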

How the results depend on the processing

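With only peaks of -log10 q of at least 5 pooled, single-library regions numbered 22272, with 77, 324 and 76 in stressed activated replicates 1 to 3, 1509 and 143 in standard-reared activated replicates 1 and 2, 514 and 184 in stressed non-activated replicates 2 and 3, and 19 and 152 in standard-reared non-activated replicates 1 and 2; stressed non-activated replicate 1 stayed within 1.5 times. At equal list length the total was 3672, with 260, 128 and 230, then 280 and 142, then 901 and 549 in stressed non-activated replicates 1 and 2, and 395 and 111. Without both long lists the total was 11732, with 1704, 3230 and 1180 in stressed activated replicates 1 to 3, 1851 in standard-reared activated replicate 2 and 1038 in standard-reared non-activated replicate 2. Leaving out 1 library gave a total of 28613 to 49218, the lowest without stressed non-activated replicate 1, and 520 to 830 in standard-reared activated replicate 2, whose count was 830 without that library and 781 without standard-reared activated replicate 1. When merging up to 200 bp 18 of 19 results, and on autosomes alone 17 of 17, kept their direction and side of the threshold.

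The distance difference of -3.19 turned to 0.38 at a -log10 q of at least 5 and was -0.28 at equal length. It was -2.34 without both long lists (exact permutation p = 0.125) and ranged from -3.66 to -2.88 without 1 library. The exact permutation p was 0.0625 without standard-reared activated replicate 1 or standard-reared non-activated replicate 2. That was the smallest possible there, as each removed an animal. It was also 0.0625 without standard-reared non-activated replicate 1, where 0.03125 was possible. The activated minus non-activated difference in this percentage was 0.46 at a -log10 q of at least 5, 1.63 when merging up to 200 bp (exact permutation p = 0.143) and 0.56 at equal length. With the replicate block it was 3.09 (exact permutation p = 0.125), and in stressed mice 2.34 (exact permutation p = 0.25, the smallest possible). In both, the block could not have given a p below the threshold, so these p-values say nothing about stability. At a -log10 q of at least 5 the standard-reared contrast turned to -2.50 and stressed against standard-reared activated libraries to 0.77; in a 5 kb window the non-activated rearing contrast turned to 0.16. The X difference between single-library and shared regions turned to -0.042 at a -log10 q of at least 5 and to -0.40 against regions called in exactly 2 libraries. The X difference between females and males was 3.74 with libraries as units (exact permutation p = 0.0159), 1.36 at a -log10 q of at least 5 and 1.88 at equal length. The cause of these changes was not tested. Depth limits absence: a region missing from a shallow list is not shown to be closed.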
